A study of Mus musculus with 6 samples.

Results

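The acrosome and sperm-egg fusion genes examined here are 37 genes chosen by symbol, which encode proteins of acrosome formation, of the acrosomal content, of sperm head shape and of gamete fusion. A row under the symbol was found for 36 of them in all 6 deposited tables, out of 23253 genes listed in any table. Messenger RNA, selected by oligo(dT), was sequenced from testes of C57BL/6 mice aged 8 months, in 3 libraries labelled L3mbtl2 cKO, a conditional knockout of L3mbtl2, and 3 labelled control. L3MBTL2 is a subunit of a Polycomb repressive complex of the PRC1.6 type. The labels name neither the Cre driver nor the cell type of the deletion, they give no allele for the control animals, and they do not tell separate animals from repeat libraries of the same tissue. The p-values therefore rest on library-to-library spread, part or all of which may be technical.

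The acrosome is a vesicle that grows from the Golgi apparatus over the nucleus of the round spermatid and stays as a cap on the sperm head. It holds proteases, hyaluronidases and matrix proteins that are set free at the acrosome reaction, which also moves the fusion protein IZUMO1 to the part of the head that meets the egg. In the mouse, IZUMO1 binds the egg receptor JUNO, and several further sperm membrane proteins are each needed for the membranes to merge. Most of these genes are transcribed in spermatids, and some of them already in late spermatocytes.

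The libraries held 17689205 to 18822050 expected counts each. The targeted gene went against the labels: expected counts for L3mbtl2 were 1030, 1105 and 1031 under the label cKO, against 658, 705 and 673 under the label control, without overlap (log2 fold change 0.67, SE 0.10, adjusted p = 0.166 in edgeR's quasi-likelihood test and 0.000757 in DESeq2). The edgeR value is the lowest adjusted p that any of the 18269 tested genes reached, and many genes share it. By unadjusted p, L3mbtl2 ranked 6, so an equal adjusted p here can stand for unequal unadjusted p. Its FPKM (fragments per kilobase of transcript, scaled for depth) averaged 16.3 ± 0.663 in the libraries labelled cKO and 14.2 ± 0.66 in those labelled control (SD, n = 3 each). On log2(FPKM + 1) the difference was smaller, 0.19. The labels do not say which exons were deleted, and counts summed over the whole gene do not separate deleted from kept exons. Why the count was higher under the label cKO was not tested. Groups are therefore named throughout as the libraries labelled cKO or control, and every direction follows the labels. The deposited tables also carry the opposite genotype in their names. The libraries labelled control stood apart from each other: replicates 2 and 3 correlated at 0.937 in log2 CPM (read counts scaled for depth by the TMM method of edgeR) across genes, whereas the libraries labelled cKO correlated at 0.981 to 0.982.

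As a group, the acrosome and fusion genes were modestly higher in the libraries labelled cKO, and none passed the test. All 36 had a positive log2 fold change, from 0.031 for Gopc to 0.48 for Tmem95, with a median of 0.34 (1.26-fold), while the median over all 18269 tested genes was -0.0048 and 49.5% of all genes were positive. edgeR's quasi-likelihood test called 0 of the 36 genes at an adjusted p of 0.05 over all genes, as it called 0% of all genes in either direction. At an unadjusted p under 0.05, 21 of 36 were higher and 0 lower, beside 8.85% of all genes higher and 18.8% lower. DESeq2 called 1 of the 36, Izumo3. Of the 15545 genes to which DESeq2 gave an adjusted p, it called 0.547% higher and 9.38% lower. All 36 passed the filter on low counts, and the smallest count of any of them in a library was 45, for Tmem95.

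The libraries labelled control were unequal in these genes. Relative to the cKO-labelled mean, the median gene stood at 0.0051, 0.00036 and -0.0029 log2 CPM in replicates 1, 2 and 3 labelled cKO, and at -0.34, -0.11 and -0.61 in replicates 1, 2 and 3 labelled control. On this scale the lowest of the 6 libraries was control replicate 3 for 34 of the 36 genes, the exceptions being Gopc and Cylc1. Control replicate 2 was the nearest to the libraries labelled cKO, and lay within their range for 9 genes. All 3 libraries labelled cKO were above all 3 labelled control for 27 of 36 genes on TMM-scaled CPM, beside 18% of all genes (19.8% lay wholly below), and for 15 of 36 on FPKM, beside 9.6% of all genes. At 3 libraries a group, the smallest two-sided p that an exact permutation test can reach for 1 gene is 0.1.

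**Figure D1:**
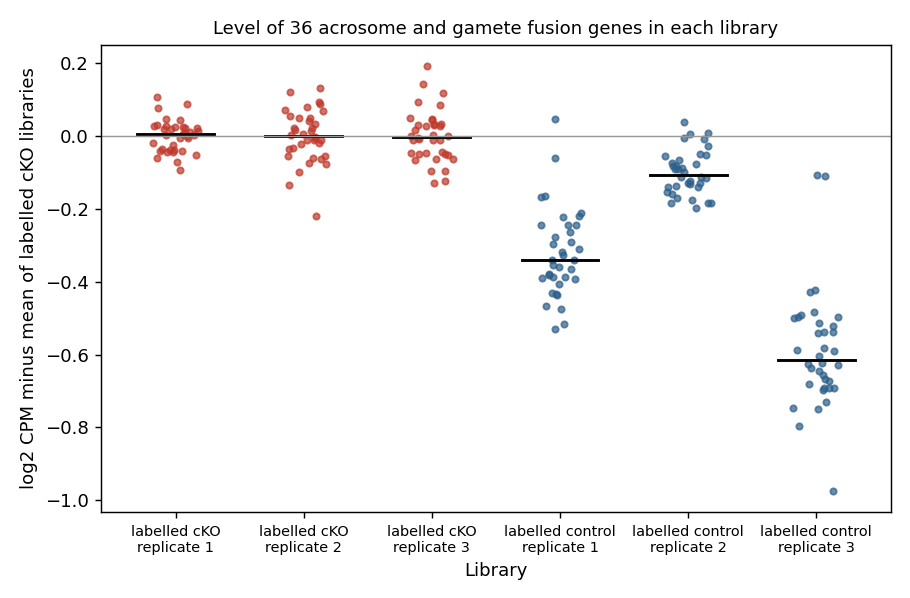
Each point is 1 of the 36 genes in 1 library; the y axis gives log2 CPM less the mean of the libraries labelled cKO, and black bars are medians. The medians of the libraries labelled control are -0.34, -0.11 and -0.61 for replicates 1, 2 and 3, and the libraries labelled cKO centre on 0.

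One library labelled control decided how many genes were called. Without control replicate 2, edgeR called 25 of the 36 genes higher and 0 lower, and the median log2 fold change was 0.47. Of the 18641 genes tested in that fit, it called 11% higher and 20.7% lower. Without control replicate 3 it called 0 of 36, and the median was 0.21. The coefficient of variation of FPKM had a median of 3.60% among the libraries labelled cKO and 14.8% among those labelled control, and it was larger among those labelled control for 34 of the 36 genes, all but Gopc and Cylc1.

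Levels per length spanned a wide range. Summed over the 36 genes, FPKM was 4643, 4612 and 4621 in the libraries labelled cKO, against 3952, 4469 and 3361 in those labelled control. Crisp2 alone held 24.9 to 28.0% of that sum in each library. The median gene had a mean of 77.2 FPKM over the 6 libraries, the lowest, Tmem95, 8.66 and the highest, Crisp2, 1134.

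**Figure D2:**
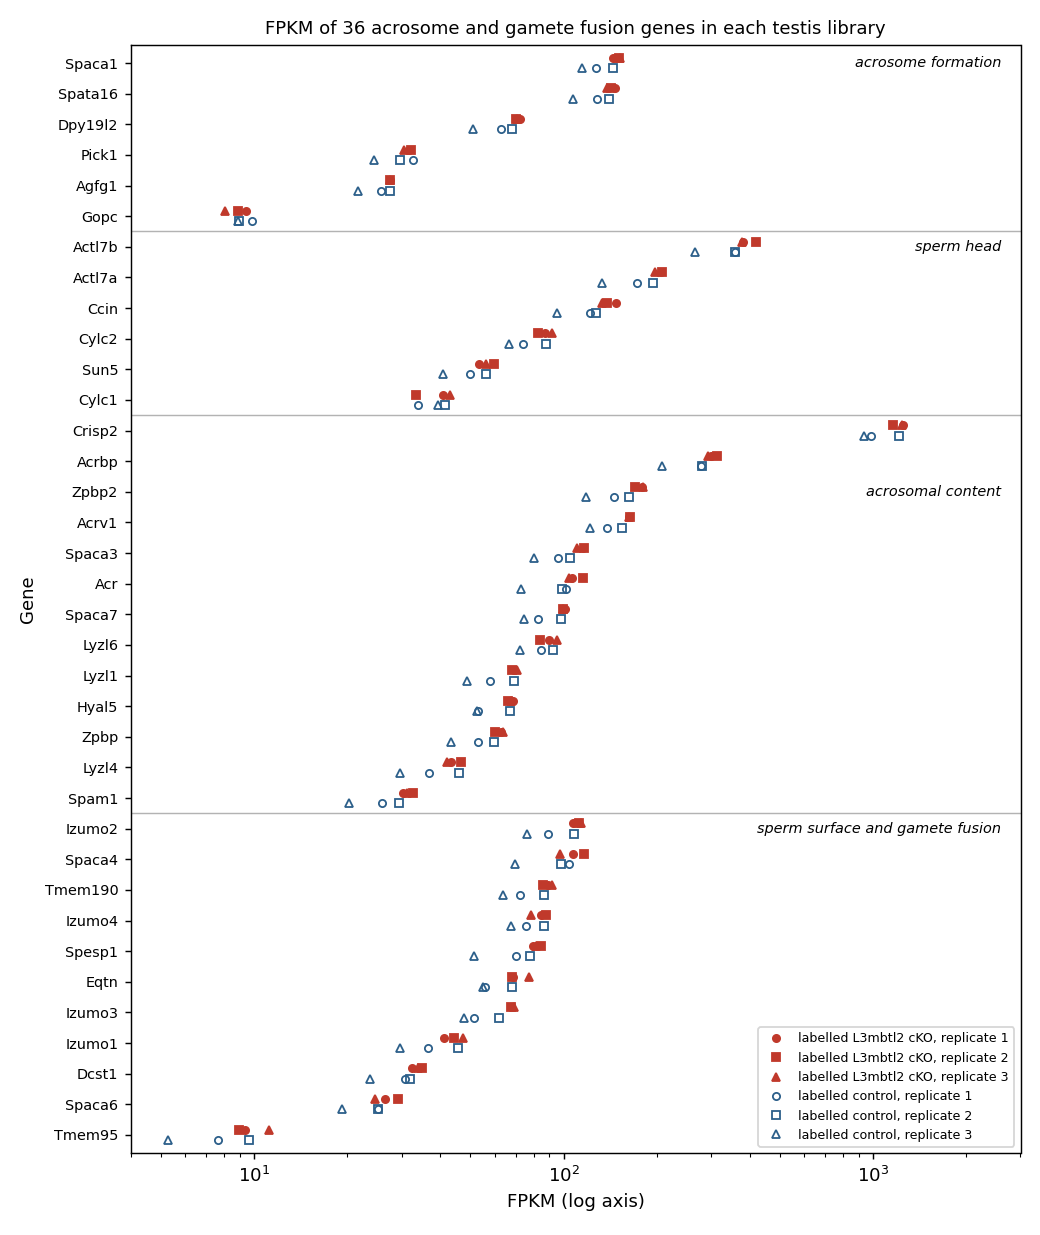
Each row is a gene and each point its FPKM (log axis) in 1 library, with the libraries labelled cKO drawn filled and above those labelled control, drawn open. Crisp2 has the highest mean, 1134 FPKM, and Tmem95 the lowest, 8.66, and control replicate 3 (open triangle) lies left of the other points for most genes.

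Among the genes of acrosome formation, Spaca1 and Spata16 were the most abundant. Spaca1 (Entrez 67652) encodes a membrane protein of the acrosome that the mouse needs to shape it. It had 144, 151 and 152 FPKM in the libraries labelled cKO, against 127, 145 and 114 in those labelled control. Control replicate 2 lay inside the range of the other group on FPKM, but below it on TMM-scaled CPM. The log2 fold change was 0.30 (SE 0.12, adjusted p = 0.171, edgeR's quasi-likelihood test), and over the alternative analyses the adjusted p ran from 0.0206 to 0.583. Spata16 (Entrez 70862) encodes a Golgi protein that is mutated in some men with round-headed sperm. It had 147, 143 and 139 FPKM in the libraries labelled cKO, against 128, 140.2 and 107 in those labelled control. Control replicate 2 was again inside the range of the libraries labelled cKO on FPKM and below it on TMM-scaled CPM (log2 0.29, SE 0.125). Dpy19l2 (Entrez 320752), whose product sits in the nuclear envelope and holds the acrosome to the nucleus, had 72.2, 70.3 and 70.6 FPKM in the libraries labelled cKO, against 62.6, 68.3 and 50.9 in those labelled control. These groups did not overlap (log2 0.33, SE 0.13).

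The other acrosome formation genes, which act in vesicle traffic and are also transcribed outside the testis, gave the smallest differences of this group. Gopc (Entrez 94221) encodes a Golgi protein that the mouse needs to bring vesicles to the acrosome. It had 9.40, 8.88 and 8.07 FPKM in the libraries labelled cKO, against 9.81, 8.94 and 8.87 in those labelled control. The groups overlapped, and the log2 fold change was 0.031 (SE 0.11, adjusted p = 0.862, edgeR's quasi-likelihood test), which turned to -0.069 with library totals alone. Pick1, a partner of GOPC in that traffic, averaged 31.4 ± 0.921 FPKM in the libraries labelled cKO and 28.9 ± 4.23 in those labelled control (SD, n = 3 each). Agfg1, needed in the mouse for proacrosomal vesicles to fuse, averaged 27.5 ± 0.0819 FPKM in the libraries labelled cKO and 25.0 ± 2.95 in those labelled control (SD, n = 3 each). The median log2 fold change of the 6 genes was 0.27.

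The sperm head genes encode actin-like and cytoskeletal proteins between acrosome and nucleus, and a nuclear envelope protein. Actl7b and Actl7a are neighbours on chromosome 4 (mm10 56740005 to 56741425 and 56743422 to 56744925) and encode testis actin-like proteins. Actl7b had 379, 419 and 378 FPKM in the libraries labelled cKO, against 359, 358 and 266 in those labelled control. Actl7a had 207, 208 and 198 FPKM in the libraries labelled cKO, against 173, 195 and 133 in those labelled control. For both, every library labelled cKO was above every one labelled control, with log2 fold changes of 0.36 (SE 0.14) and 0.39 (SE 0.15) and adjusted p of 0.173 and 0.172 in edgeR's quasi-likelihood test. Ccin, encoding calicin of the perinuclear theca, had 148, 138 and 134 FPKM in the libraries labelled cKO, against 122, 128 and 95.5 in those labelled control, also without overlap (log2 0.38, SE 0.14).

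The cylicins are basic proteins of the same theca. Cylc1, on the X chromosome, had 40.7, 33.4 and 42.9 FPKM in the libraries labelled cKO, against 33.9, 41.4 and 39.2 in those labelled control. On FPKM all 3 libraries labelled control lay inside the range of those labelled cKO, but on TMM-scaled CPM control replicate 1 lay below it. The log2 fold change was 0.13 (SE 0.14, adjusted p = 0.529, edgeR's quasi-likelihood test), and the adjusted p ran from 0.211 to 0.904 over the alternatives. Cylc2, on chromosome 4, averaged 87.4 ± 4.56 FPKM in the libraries labelled cKO and 76.3 ± 10.8 in those labelled control (SD, n = 3 each; log2 0.29). Sun5, which anchors the tail to the nucleus, averaged 56.4 ± 3.10 FPKM in the libraries labelled cKO and 49.0 ± 7.79 in those labelled control. The difference between Cylc1 and Cylc2 was not tested.

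The acrosomal content held 13 genes, all with positive fold changes from 0.21 to 0.41 log2. Crisp2 (Entrez 22024) encodes a cysteine-rich secretory protein of acrosome and tail. It had 1254, 1161 and 1245 FPKM in the libraries labelled cKO, against 983, 1218 and 939 in those labelled control. Control replicate 2 lay inside the range of the libraries labelled cKO, with a log2 fold change of 0.32 (SE 0.14, adjusted p = 0.189, edgeR's quasi-likelihood test). Acrbp (Entrez 54137), whose product packs the zymogen of acrosin, had 299.7, 314 and 294 FPKM in the libraries labelled cKO, against 278, 281 and 208 in those labelled control. Those groups did not overlap (log2 0.34, SE 0.14). Acrosin itself, the serine protease encoded by Acr, averaged 109 ± 6.04 FPKM in the libraries labelled cKO and 91.4 ± 16.2 in those labelled control (SD, n = 3 each).

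Acrv1 and Spaca3 had the smallest p of this group. Acrv1 (Entrez 11451), which encodes the acrosomal matrix protein SP-10, had 163, 164 and 162 FPKM in the libraries labelled cKO, against 138, 154 and 122 in those labelled control. The libraries labelled cKO lay very close together and all above the others (log2 0.34, SE 0.12, adjusted p = 0.166, edgeR's quasi-likelihood test). Spaca3 (Entrez 75622), a lysozyme-like protein of the acrosome, had 116, 116 and 111 FPKM in the libraries labelled cKO, against 95.8, 105 and 80.4 in those labelled control, again without overlap (log2 0.38, SE 0.13). The related gene Lyzl6 had 89.6, 83.7 and 95.0 FPKM in the libraries labelled cKO, against 84.8, 92.5 and 72.6 in those labelled control. Those groups overlapped, and its log2 fold change was the lowest of the content genes at 0.21 (SE 0.13, adjusted p = 0.298, edgeR's quasi-likelihood test).

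The remaining content genes also had higher means in the libraries labelled cKO. Among the lysozyme-like genes, Lyzl1 averaged 69.3 ± 1.34 FPKM in the libraries labelled cKO and 58.6 ± 10.4 in those labelled control (SD, n = 3 each). Lyzl4 averaged 44.0 ± 2.37 FPKM in the libraries labelled cKO and 37.4 ± 8.17 in those labelled control. The zona pellucida binding proteins Zpbp and Zpbp2 had log2 fold changes of 0.35 and 0.40. The hyaluronidases Spam1 and Hyal5, which digest the matrix around the egg and lie close together on chromosome 6 (mm10 24791188 to 24801048 and 24857937 to 24891959), had 0.41 and 0.37. Spaca7, a further acrosomal protein gene, had 0.33. Hyal5 is also 1 of the 3 genes, with Cylc2 and Spaca6, whose deposited length differed by over 2% between libraries, and its length averaged 1796 bases in the libraries labelled cKO and 1746 in those labelled control.

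Among the genes of the sperm surface and of gamete fusion, the Izumo family held both the smallest p and the lowest fold change. Izumo3 (Entrez 69314, mm10 chromosome 4, 92144318 to 92147225), which in the mouse is needed to form the acrosome, had 67.6, 67.9 and 69.0 FPKM in the libraries labelled cKO, against 51.3, 61.7 and 47.6 in those labelled control. Its expected counts were 1543, 1544 and 1559 in the libraries labelled cKO and 1114, 1358 and 1027 in those labelled control. The libraries labelled cKO were nearly equal and all above the others. The log2 fold change was 0.44 (SE 0.13), the adjusted p was 0.166 in edgeR's quasi-likelihood test and 0.0488 in DESeq2, and it ran from 0.0097 to 0.604 over all alternatives. It ranked 806 of 18269 genes by p.

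Izumo2 had 108, 112 and 114 FPKM in the libraries labelled cKO, against 89.4, 108 and 76.2 in those labelled control. On FPKM control replicate 2 reached the lowest library labelled cKO, and on TMM-scaled CPM it lay below all of them (log2 0.37, SE 0.15). Izumo4 had 84.8, 88.1 and 78.3 FPKM in the libraries labelled cKO, against 75.9, 86.4 and 67.4 in those labelled control, so the groups overlapped. Its log2 fold change was the lowest of the surface genes at 0.22 (SE 0.13, adjusted p = 0.261, edgeR's quasi-likelihood test). Izumo1, the ligand of JUNO, averaged 44.2 ± 2.99 FPKM in the libraries labelled cKO and 37.3 ± 8.02 in those labelled control (SD, n = 3 each; log2 0.34), with overlap at control replicate 2. Its expected counts were not whole numbers, as for Dcst1, so some reads may have been shared with other rows, which was not tested.

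Spaca4 encodes a small surface protein that mouse sperm need to bind the zona pellucida. It had 107, 117 and 97.8 FPKM in the libraries labelled cKO, against 104, 98.4 and 69.8 in those labelled control, and the groups overlapped on this scale (log2 0.34, SE 0.17). Eqtn, encoding the acrosomal membrane protein equatorin, had 68.8, 68.0 and 77.2 FPKM in the libraries labelled cKO, against 55.8, 68.4 and 54.9 in those labelled control. On FPKM only control replicate 2 reached the libraries labelled cKO, and on TMM-scaled CPM it did not (log2 0.35, SE 0.13, adjusted p = 0.167, edgeR's quasi-likelihood test). Spesp1, of the equatorial segment, and Tmem190, of the acrosomal membrane, had log2 fold changes of 0.40 and 0.36. Spaca6, needed for fusion in the mouse, averaged 26.8 ± 2.35 FPKM in the libraries labelled cKO and 23.1 ± 3.35 in those labelled control (SD, n = 3 each).

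The least abundant of the 36, Tmem95, a further membrane protein that mouse sperm need for fusion, had the largest fold change and the largest SE. Its expected counts were 84, 80 and 100 under the label cKO, against 65, 84 and 45 under the label control, with overlap at control replicate 2. The log2 fold change was 0.48 (SE 0.29, adjusted p = 0.279, edgeR's quasi-likelihood test).

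Dcst1 and Dcst2 encode paired sperm membrane proteins that are both needed for fertilization in the mouse. Dcst1 had 32.3, 34.9 and 33.8 FPKM in the libraries labelled cKO, against 30.8, 32.0 and 23.8 in those labelled control (log2 0.32, SE 0.14). No row carries the symbol Dcst2, so by the rule it counts as 0, but a transcript model assembled by the submitters' pipeline, BGI_novel_G001152, is described in the deposited tables as similar to rat DC-STAMP domain-containing protein 2. That model had 34.1, 34.9 and 31.7 FPKM in the libraries labelled cKO, against 30.8, 31.9 and 23.5 in those labelled control (log2 0.32, SE 0.14, adjusted p = 0.187, edgeR's quasi-likelihood test). The tables give the model no symbol, so it is not counted among the 36, and the missing row for Dcst2 is not read as absence of its transcript. In RefSeq on GRCm38.p6, Dcst1 (chromosome 3, 89350219 to 89365253) and Dcst2 (89350417 to 89377643) overlap. No source used here says whether the libraries keep strand, so reads of the pair may not be fully separate. The model's expected counts were whole numbers in every library, unlike those of Dcst1. Sharing of reads between these rows is therefore not shown, and it was not tested.

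Promoter sequences were read for motifs that bear on genes moving together in spermatids and on the PRC1.6 complex. RefSeq promoter windows of GRCm38.p6, a patch release of the assembly also called mm10, from 250 bases before to 50 after the start, were matched for 32 of the 37 genes. Acr, Cylc2, Eqtn, Izumo4 and Lyzl1 are not among them. The cyclic AMP response element TGACGTCA, the site bound by the spermatid activator CREM, was found on either strand in 2 of 32 genes, Ccin and Izumo1, against 2.03% of 27025 genes with a window. Its half-site TGACG, which the full element contains, was found in 12 of 32 (37.5%), against 23% of all genes. The E-box CACGTG, to which the PRC1.6 subunits MGA and MAX bind, was found in 3 of 32 (9.38%), against 8.09% of all genes. The core TCCCGC of sites for E2F6, another subunit, was found in 4 of 32 (12.5%), against 22%. The full matches that lie before the start listed in the promoter table are shown, on the gene's strand, with the motif in capitals; the E-box in Crisp2 lies after the start. For Dpy19l2 the table's start lies inside the annotated gene, whose minus-strand 5′ end is at 24696457, so the window shown is upstream of that listed start but within the gene. A match is a description of letters and no evidence of binding.
Ccin, chr4:43983424-43983491, plus strand, CRE: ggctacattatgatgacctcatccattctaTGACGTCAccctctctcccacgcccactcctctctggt
Izumo1, chr7:45621685-45621752, plus strand, CRE: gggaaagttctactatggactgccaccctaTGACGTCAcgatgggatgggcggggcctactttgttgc
Dpy19l2, chr9:24696309-24696374, minus strand, E-box: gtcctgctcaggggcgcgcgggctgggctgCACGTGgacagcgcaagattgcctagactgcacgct
Spata16, chr3:26637530-26637621, plus strand, 2 E-boxes: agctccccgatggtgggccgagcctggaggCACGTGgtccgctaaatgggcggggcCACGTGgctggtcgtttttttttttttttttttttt

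The genes shown with these windows had no extreme values: their log2 fold changes, 0.38 for Ccin, 0.34 for Izumo1, 0.33 for Dpy19l2 and 0.29 for Spata16, lie within the range of the 36.

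Other genes of the same processes, taken from lists outside the 37, gave like values. Of 18 further genes of acrosome biogenesis and the acrosome reaction, 16 had positive fold changes, with a median of 0.30. edgeR's quasi-likelihood test called 0 of the 18. At an unadjusted p under 0.05 in that test, 7 were higher and 0 lower, beside 8.85% of all genes higher and 18.8% lower. The acrosin inhibitor gene Spink2 averaged 332 ± 5.91 FPKM in the libraries labelled cKO and 287 ± 48.5 in those labelled control (SD, n = 3 each; log2 0.31). Spaca9 averaged 250.2 ± 19.8 FPKM in the libraries labelled cKO and 208 ± 28.2 in those labelled control (log2 0.36). The negative ones were Smap2 and Vps54, genes of vesicle traffic (log2 -0.041 and -0.25). Of 14 genes of sperm-egg binding and fusion and of the folding of sperm surface proteins, 13 had a row. Of these, 12 were positive, with a median of 0.31, and edgeR called 0. At an unadjusted p under 0.05 in edgeR's quasi-likelihood test, 3 were higher and 0 lower, beside the same shares of all genes. Lypd4, of the same surface protein family as Spaca4, averaged 353 ± 3.97 FPKM in the libraries labelled cKO and 302 ± 42.1 in those labelled control (log2 0.32). Llcfc1, needed in the mouse for sperm to fuse, averaged 206 ± 3.98 FPKM in the libraries labelled cKO and 175 ± 26.7 in those labelled control (log2 0.33). The negative one was Tpst2, a sulfotransferase (log2 -0.54). DESeq2 called 0 of either list.

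Markers of spermatids and spermatocytes moved in the same direction as these values, and most markers of other cells in the opposite one. edgeR's quasi-likelihood test called 0 of the markers. The 22 other spermatid genes were all positive, with a median of 0.37, and DESeq2 called 1 of them, the sperm calcium channel gene Catsper3 (43.9 ± 1.07 FPKM in the libraries labelled cKO and 34.5 ± 3.37 in those labelled control; SD, n = 3 each). The 10 pachytene spermatocyte genes were also all positive (median 0.30), and the transcription factor gene Pou5f2 was the 1 that DESeq2 called. All 10 Leydig and all 10 Sertoli markers were negative, with medians of -1.69 and -0.99. Leydig markers summed to 1482, 1641 and 1504 FPKM under the label cKO, against 4246, 2097 and 10287 under the label control. Sertoli markers summed to 604, 616 and 593 FPKM under the label cKO, against 1171, 788 and 2117 under the label control. The libraries labelled control thus stood in the opposite order, with replicate 3 highest in somatic markers and lowest in acrosome genes and replicate 2 nearest to the libraries labelled cKO in both. DESeq2 called 6 Leydig markers lower, among them Lhcgr, Ptgds and Hsd17b3, and 9 Sertoli markers, among them Fshr, Rhox5 and Sox9. Of the 15545 genes to which it gave an adjusted p, it called 9.38% lower and 0.547% higher. Summed FPKM of 8 macrophage markers was 41.9 to 49.0 in the libraries labelled cKO, against 114, 48.5 and 227 in those labelled control (DESeq2 called 5 lower, among them Cd68, Csf1r and Cd163). That of 4 peritubular myoid markers was 27.9 to 33.6 under the label cKO, against 51.6, 32.4 and 65.0 under the label control (DESeq2 called Myh11 lower). Of 10 spermatogonial markers 7 were negative (median -0.37), with summed FPKM of 75.4 to 78.9 under the label cKO, against 91.0 to 126 under the label control (DESeq2 called Dmrt1 and Kit lower). No marker was listed at 0 in any library. In bulk testis, fewer cells of a type and less RNA per cell cannot be told apart, and the part of these markers in the acrosome gene values was not tested.

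**Figure D3:**
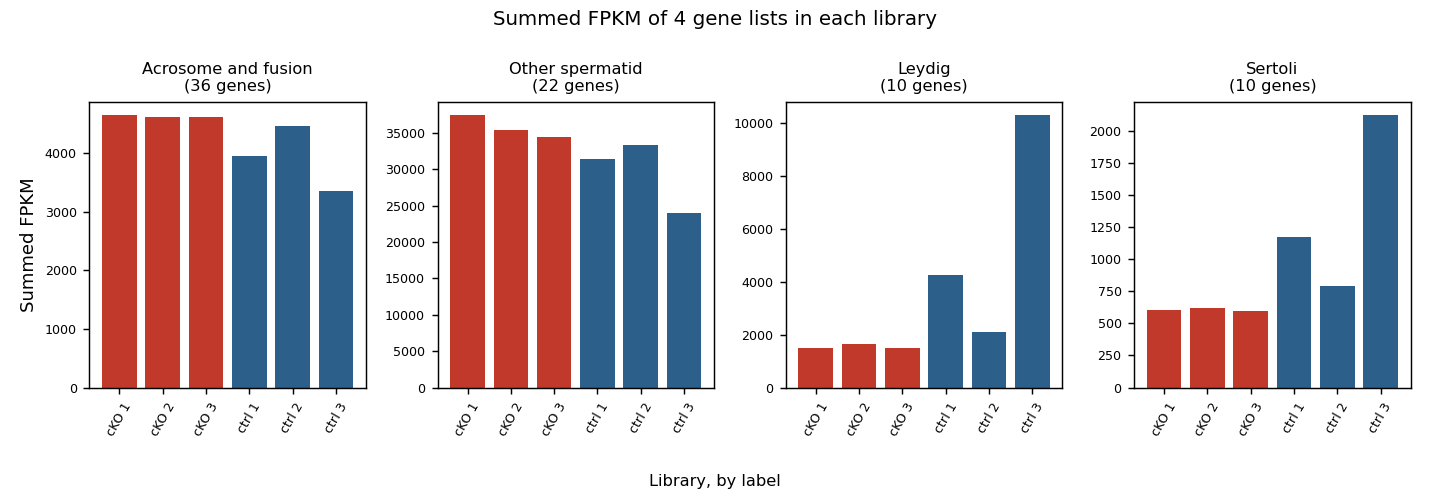
Bars give the summed FPKM of 4 gene lists in each library, with the libraries labelled cKO left (red) and those labelled control right (blue). Control replicate 3 has the lowest sum of acrosome and fusion genes, 3361, and the highest sum of Leydig markers, 10287.

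Set against other spermatid transcripts, the acrosome and fusion genes were near level as a group, with most slightly lower. With the libraries scaled to an equal geometric mean count of the 22 other spermatid genes, the median log2 fold change of the 36 genes was -0.025, from -0.36 to 0.14, with 9 of 36 positive and 29 of 36 within 0.1 of 0. All 6 acrosome formation genes were negative, with a median of -0.099. The other role groups were mostly negative too: 2 of 6 sperm head, 3 of 13 content and 4 of 11 surface genes were positive. Their medians were -0.038, -0.022 and -0.013. The 22 genes were chosen with earlier results of these data known and were all positive under TMM scaling, so they are not an independent reference. On this scale the median of all genes was -0.395, and edgeR called 0 of the 36. At an unadjusted p under 0.05, 1 of the 36 was lower and 0 higher, beside 37% of all genes lower and 0.153% higher. The lower one was Gopc (log2 -0.36, SE 0.15, adjusted p = 0.133, edgeR's quasi-likelihood test). The next lowest were Cylc1 (-0.26), Lyzl6 (-0.16), Pick1 (-0.15), Izumo4 (-0.15) and Agfg1 (-0.12). Izumo3, at 0.075 (SE 0.098), did not differ from the other spermatid genes beyond its error.

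**Figure D4:**
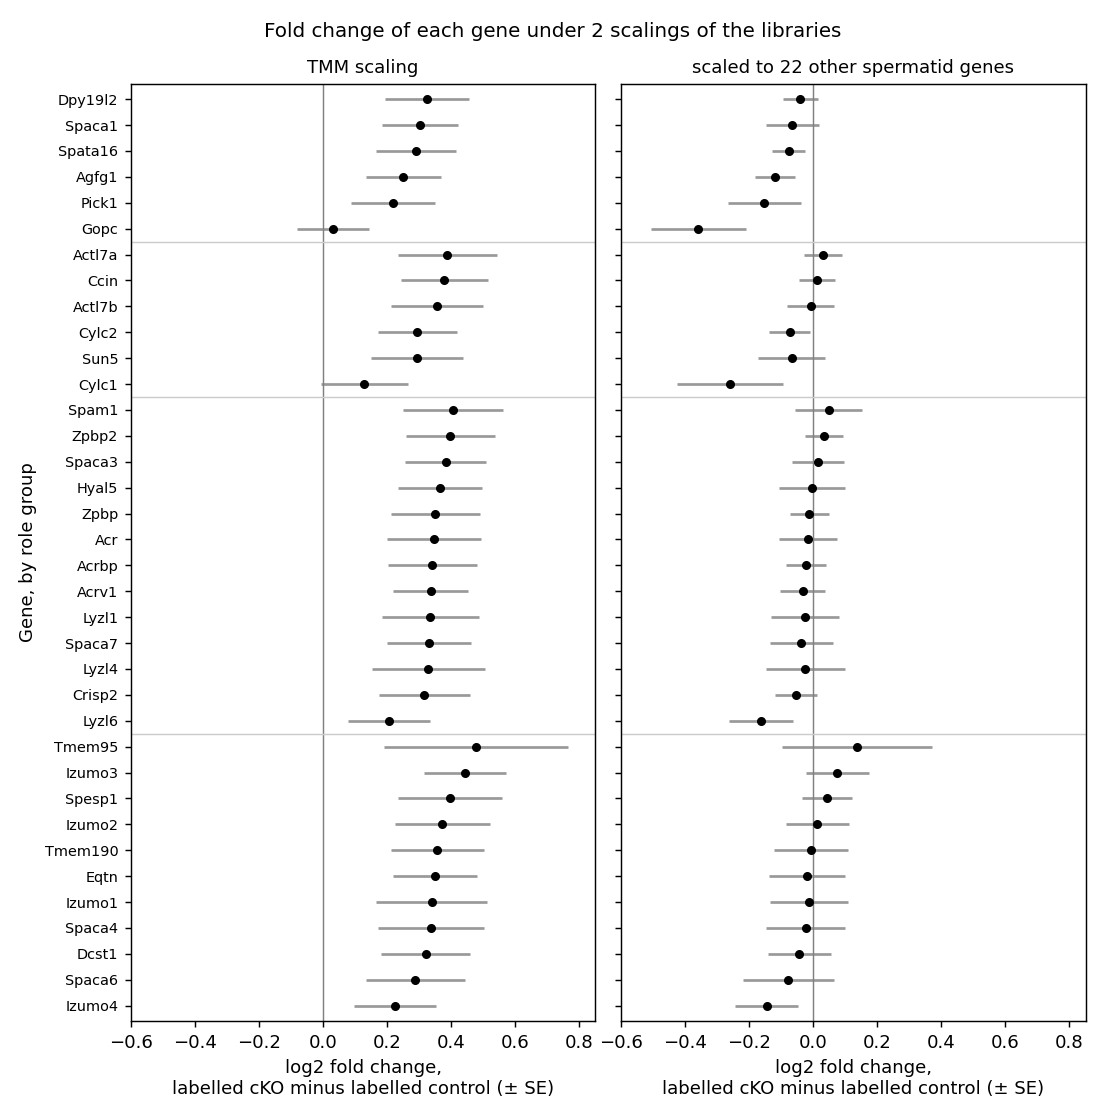
Points give each gene's log2 fold change, labelled cKO minus labelled control, with SE bars, under TMM scaling (left) and with libraries scaled to 22 other spermatid genes (right); grey lines part the role groups. The median is 0.34 on the left and -0.025 on the right, and Gopc and Cylc1 lie lowest in both panels.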

How the data were processed

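Per the file headers, each deposited table lists genes with an identifier, a symbol, transcripts, a length, an expected count and an FPKM value. The expected counts were deposited unnormalized, and the deposited FPKM carry the authors' scaling by length and depth. The submitters' processing notes name bcl2fastq 2.16, HISAT2 2.0.4, Bowtie2 2.2.5, RSEM, DESeq2 and mm10, with no role or order. Genes are listed from an FPKM of 0.01, and a missing gene was set to 0. Assembled transcript models held 2.26 to 2.75% of the counts.

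After rounding, the expected counts were compared in R 4.3.3 by edgeR 4.0.16 (filterByExpr, minimum count 10 and minimum total count 15; TMM; quasi-likelihood F-test; Benjamini-Hochberg over 18269 genes at 0.05), labelled cKO against labelled control by sample title. The SE is the log2 fold change divided by the root of F. The common biological coefficient of variation was 22.8%. Log2 CPM used a prior count of 2. Alternatives were DESeq2 1.42.0 size factors and test, and limma 3.58.1 on FPKM with pseudocounts of 1 and 0.1 (genes reaching FPKM 1 in 3 or more libraries). Further alternatives were library totals, scaling to 22 spermatid genes, other filters, a replicate block and leaving out each library. The tools were tested on simulated counts with the same dispersion in both groups, unlike the unequal spread seen here.

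The members and lists were chosen with earlier results of these data known. Values in every library are given, per role group, for the 2 most abundant genes, the 2 of smallest p and the 1 of lowest fold change, and for Tmem95, Dcst1 and the Dcst2-like model, chosen after their values were seen. From the other lists, up to 3 genes called by DESeq2 are named, or else the 2 most abundant; genes of negative fold change were added after their values were seen.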

Additional observations from a re-analysis of the deposited data

How the results depend on the processing

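The median log2 fold change of the 36 genes ran from 0.212 to 0.474 on leaving out 1 library, and it was -0.025 with the spermatid scaling. Every other alternative moved it by less than 0.177, the SD between libraries of a group pooled over both groups. Nearly all of that spread came from the libraries labelled control, since those labelled cKO lay close together. Library totals lowered the median of all genes to -0.104 and that of the 36 to 0.24. The count of the 36 called higher ran from 0 to 25 on leaving out 1 library and was 1 in DESeq2; none was called lower in any fit. Over all genes, the calls higher ran from 0 to 2049 and lower from 0 to 3851 on leaving out 1 library, DESeq2 called 85 higher and 1458 lower, and limma called 1 higher with either pseudocount. Gopc turned to -0.069 with library totals, -0.003 with a filter of 5 CPM in 3 libraries, -0.062 and -0.068 in limma, and ran from -0.021 to 0.093 on leaving out 1 library. With the spermatid scaling Gopc turned to -0.359, Spata16 to -0.077, Dpy19l2 to -0.041, Spaca1 to -0.066, Actl7b to -0.008, Cylc1 to -0.26, Acrbp to -0.022, Acrv1 to -0.033, Lyzl6 to -0.164, Crisp2 to -0.054, Izumo4 to -0.146, Spaca4 to -0.024 and Eqtn to -0.02. With the replicate number as a block, edgeR called 0 genes and the median was 0.355. Deviations of same-numbered libraries from their group means correlated at 0.043, -0.007 and -0.039. No pairing by number was seen, but a weak one could be missed beside the large spread among the libraries labelled control. The 5 CPM filter removed Tmem95. The cause of these moves was not tested.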
